A study of Mus musculus with 2 samples.

Results

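Itpripl1, the genes of the CD3 chains (Cd3d, Cd3e, Cd3g and Cd247) and the constant-region genes of the T cell receptor (Trac, Trbc1, Trbc2 and Trdc) are described here in immune cells of tumors from nude mice. They were chosen by symbol, and all 9 were found among the 32285 mouse genes counted. The tumors grew from cells of the human osteosarcoma line 143B in female nude mice aged 4 weeks. One set of 3 tumors was taken from mice given control IgG and another set of 3 from mice given anti-CD3L1 antibody, both at 10 mg/kg, in 4 treatments given every 3 days. CD3L1 is the study's name for the protein of ITPRIPL1. The tumors of a set were pooled into 1 library of cells isolated by CD45 beads (CD45 is carried on the surface of leukocytes), so no difference between the libraries has a replicate check. Human transcripts of the tumor cells were not analysed here.

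In a T cell the antigen receptor, either an alpha and beta or a gamma and delta chain pair, cannot signal by itself. It travels to the surface only with the CD3 chains: a gamma-epsilon pair, a delta-epsilon pair and a zeta-zeta pair encoded by Cd247. The zeta chain is also used without the other CD3 chains, for example by NK cell receptors. Cells of the innate lymphoid branch can carry unrearranged receptor constant-region transcripts and intracellular CD3 chains without making a receptor. Nude mice lack a thymus, the organ in which most T cells mature, while NK cells do not need it. ITPRIPL1 has been described as a membrane ligand that binds CD3 epsilon, which is why ligand and receptor genes are read side by side.

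Cd3g, Cd3d and Cd3e lie in a cluster of 40056 bases on chromosome 9 of GRCm38 (GENCODE M21), Cd3g from 44969572 to 44980431 on the minus strand, Cd3d from 44981786 to 44987339 on the plus strand and Cd3e from 44998740 to 45009627 on the minus strand. Cd3g and Cd3d point away from each other, with 1354 bases between them, and only Cd3d was found at a level in neutrophils. The 250 bases before the start of these 3 genes are shown for that reason, from the RefSeq promoter table of GRCm38.p6. The windows are chr9:44980432-44980681 on the minus strand for Cd3g, chr9:44981536-44981785 on the plus strand for Cd3d and chr9:45009612-45009861 on the minus strand for Cd3e, each written 5′ to 3′ along its gene. Capitals mark matches, on either strand, to the ETS motif GGAAGT, the E-box CACCTG, the RUNX motif TGTGGT, the C/EBP motif TTGCNNAA and the PU.1 motif GAGGAA.
Cd3g: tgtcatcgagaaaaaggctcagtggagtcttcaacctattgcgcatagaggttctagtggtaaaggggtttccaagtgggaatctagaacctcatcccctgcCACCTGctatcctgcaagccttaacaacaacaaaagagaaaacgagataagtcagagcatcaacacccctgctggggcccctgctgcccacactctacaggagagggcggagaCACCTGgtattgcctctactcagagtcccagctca
Cd3d: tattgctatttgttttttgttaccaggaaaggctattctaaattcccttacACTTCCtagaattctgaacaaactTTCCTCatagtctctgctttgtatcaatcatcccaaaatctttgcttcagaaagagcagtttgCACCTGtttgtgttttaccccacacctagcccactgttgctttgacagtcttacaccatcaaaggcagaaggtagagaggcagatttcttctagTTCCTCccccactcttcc
Cd3e: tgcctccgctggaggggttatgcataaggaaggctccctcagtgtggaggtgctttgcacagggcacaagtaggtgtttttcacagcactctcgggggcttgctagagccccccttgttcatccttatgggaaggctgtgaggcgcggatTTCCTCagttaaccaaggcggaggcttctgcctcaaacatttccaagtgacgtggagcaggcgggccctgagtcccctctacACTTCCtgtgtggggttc
The Cd3g window holds 2 E-boxes, 148 and 35 bases before the start. The Cd3d window holds an ETS match, an E-box and 2 PU.1 matches, the latter 175 and 18 bases before the start, and the Cd3e window an ETS and a PU.1 match. No matches overlap in these windows. Of 32851 promoters of the same length, 19.7% hold the ETS motif, 17.2% the E-box, 14.0% the RUNX motif, 9.56% the C/EBP motif and 23.3% the PU.1 motif, so each is common, and a match is only a run of letters.

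Trbc1 (chromosome 6, 41538218 to 41539881) and Trbc2 (41546730 to 41548352) are the alternative constant regions of the beta chain. Their coding sequences match at 95.6% of 518 bases, and the first 259 bases are identical, so how reads were split between them is uncertain and their sum is safer than either. Bases 381 to 518, which hold 22 of the 23 differing bases, are shown with those in capitals, since most of the coding difference between the genes lies there. Their untranslated parts were not compared.
Trbc1: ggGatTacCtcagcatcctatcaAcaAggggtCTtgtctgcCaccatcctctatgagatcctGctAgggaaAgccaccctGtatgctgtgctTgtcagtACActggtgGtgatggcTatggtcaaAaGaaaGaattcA
Trbc2: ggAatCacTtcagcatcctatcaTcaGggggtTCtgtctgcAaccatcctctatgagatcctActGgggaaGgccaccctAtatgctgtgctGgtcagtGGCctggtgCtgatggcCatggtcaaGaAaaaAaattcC
Trac (chromosome 14, 54220521 to 54224206) and Trdc (54142851 to 54148868), the constant regions of the alpha and delta chains, are 71652 bases apart on the plus strand. Cd247 lies on chromosome 1 (165788681 to 165877277, plus strand) and Itpripl1 on chromosome 2 (127138772 to 127143442, minus strand). Cd247 overlaps Pou2f1 on the opposite strand, which had 2071 UMIs under control IgG and 4365 after anti-CD3L1. Trdc overlaps the antisense gene Gm43434, with 45 and 130 UMIs, and Cd3e the antisense gene Gm48719, with 6 and 3 UMIs. The sources used here do not say whether strand was used in counting, so reads of these opposite-strand genes may be mixed with those of the members. Cd247 also overlaps Gm16565 on the same strand, with 12 and 54 UMIs, where strand cannot separate the genes.

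The control IgG library gave 8557 cells with a median of 5526 unique molecular identifiers (UMIs, counted RNA molecules), and the anti-CD3L1 library 11269 cells with a median of 8267. A cell was put in a gate when it held at least 3 distinct markers of a list and the largest share of that list, and no member gene served as a marker. The neutrophil gate fell from 67.3% to 5.15% of cells. The NK gate rose from 148 cells (1.73%, exact binomial 95% interval 1.46 to 2.03%) to 849 (7.53%, 7.05 to 8.04%), and the gate of type 2 innate lymphoid cells (ILC2) from 24 to 140. Of the NK-gated cells, 50 and 219 also reached the minimum of another list, in 26 and 101 cells that of the T cell list. Levels are given as CPM, the UMIs of a gene per 1000000 UMIs of its gate, with exact Poisson 95% intervals. All intervals cover counting error only. The libraries shared 26 cell barcodes.

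The NK gate held most UMIs of 6 members in both libraries: Trdc, Trbc1, Trbc2, Trac, Cd3g and Cd247. Its share of a gene's UMIs was highest for Trdc, at 89.6% of 317 UMIs under control IgG and 83.0% of 1776 after anti-CD3L1. The share was 79.3% and 75.7% for Trbc1, 78.3% and 70.2% for Cd3g, 72.6% and 73.2% for Cd247, 60.4% and 67.7% for Trbc2, and 63.3% and 59.6% for Trac. Of all UMIs of the 8 CD3 and receptor genes together, 55.2% and 73.6% were in NK-gated cells. Cd3e, Cd3d under control IgG, and Itpripl1 lay mostly elsewhere. Such shares also depend on cell number. After anti-CD3L1 the CPM was highest in the 19 T-gated cells for 7 of the 9 members. It was highest in the NK gate for 1 and in the plasmacytoid dendritic gate for 1. For Cd247, Trbc2, Trbc1 and Itpripl1 the interval of the highest gate overlapped that of the next. The share of all genes that were highest in the small T cell gate is not given here. In T-gated against NK-gated cells, Trdc had 291 and 177 CPM, Cd3g 200 and 64.0 CPM, and Cd3d 206 and 25.1 CPM. The 7 control T-gated cells were under the minimum of 10 cells for this order.

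**Figure D1:**
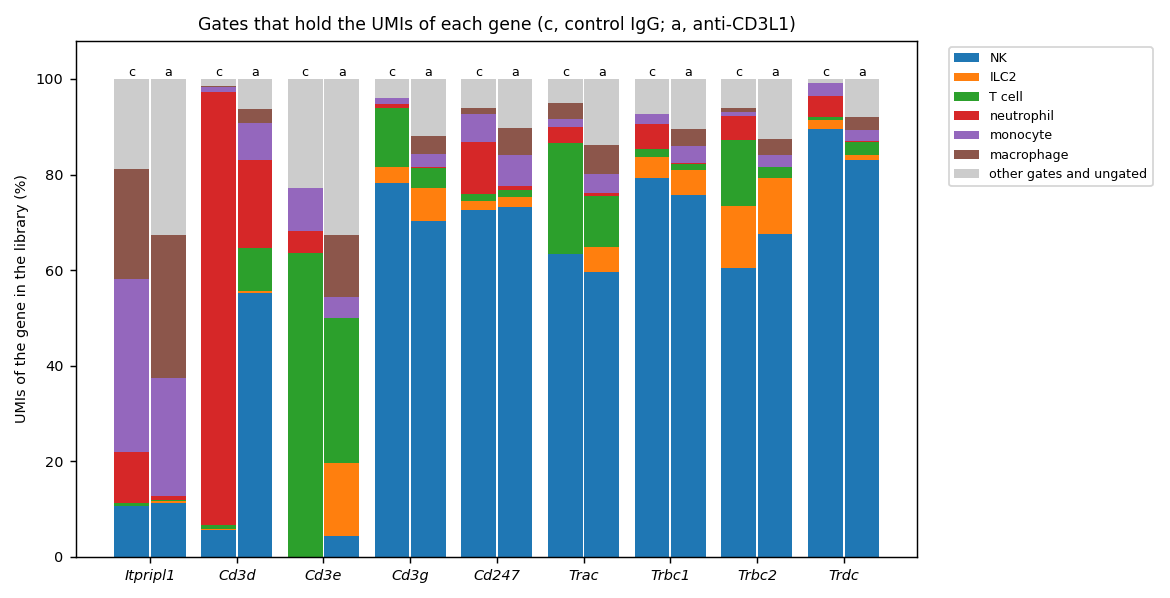
Share of each gene's UMIs (y axis, percent of its UMIs in the library) by marker gate, with a bar for control IgG (c) and a bar for anti-CD3L1 (a) per gene. NK-gated cells hold 60.4% to 89.6% of Trbc1, Trbc2, Trdc, Cd3g, Cd247 and Trac under control IgG, while 90.6% of Cd3d UMIs are in neutrophil-gated cells there.

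Among the CD3 chains in NK-gated cells, Cd247 had 188 CPM (169 to 209) under control IgG and 139.8 CPM (132 to 148) after anti-CD3L1, with a UMI in 71.6% and 56.7% of cells. Cd3g had 107 CPM (92.2 to 123) and 64.0 CPM (58.7 to 69.7), in 37.2% and 27.4% of cells. Cd3d had 28.4 CPM (21.2 to 37.3) and 25.1 CPM (21.8 to 28.7), in 14.2% and 10.8% of cells. Cd3e, the chain that both CD3 pairs need, had 0 UMIs in the 148 control cells, which allows up to 2.03% of cells with a UMI of it, and 2 UMIs in 1 of the 849 treated cells. Transcripts of 3 CD3 chains were thus detected in many NK-gated cells and those of the fourth in at most 1 cell a library at this depth.

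Cd3d and Cd3g were often found in the same NK-gated cells. Of 21 control cells with Cd3d, 18 (85.7%) held Cd3g, and of 92 treated cells 57 (62.0%), where 37.2% and 27.4% of all NK-gated cells did. Deeper cells hold more of any gene, and the part of depth in this was not tested. Cd3d reached 14 UMIs in a single control cell and Cd3g 22.

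Of the receptor genes in NK-gated cells, Trbc1 had 357 CPM (329.7 to 385) and 346 CPM (333 to 359), in 87.8% and 86.6% of cells. Trbc2 had 119 CPM (104 to 136) and 135 CPM (127 to 143), in 39.2% and 35.8% of cells. Trdc had 155 CPM (138 to 174) and 177 CPM (168 to 186), in 62.2% and 63.5% of cells. Trac had 20.8 CPM (14.7 to 28.5) and 10.8 CPM (8.69 to 13.3). The constant genes were therefore close to each other between the libraries except Trac, whose intervals did not overlap. At least 1 of the 8 genes was found in 147 of 148 and 827 of 849 NK-gated cells. At a depth of 1000 UMIs per cell the share was 52.7% and 57.1%.

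A functional receptor must have a variable segment joined to its constant region. Those of alpha and beta were scarce, and those of gamma and delta less so. Over 163 alpha and beta variable segments, NK-gated cells held 3 UMIs under control IgG and 7 after anti-CD3L1. Over 13 gamma and delta variable segments they held 70 UMIs (38.3 CPM), in 29.1% of cells, and 170 UMIs (20.4 CPM), in 15.2%. Most of these were of Trdv4, a delta variable segment, with 54 UMIs (29.5 CPM) and 114 UMIs (13.7 CPM), followed by Trdv2-2 with 15 and 54 UMIs. The delta joining segment Trdj1 had 19 and 82 UMIs. The 16 beta joining and diversity segments had 15 and 42 UMIs, in 10.1% and 4.71% of cells. The 60 alpha joining segments had 6 and 16 UMIs. The constant genes of the gamma chain, the partner of delta, had 12 and 10 UMIs over 4 genes. Their level was 6.56 CPM (3.39 to 11.5) under control IgG and 1.20 CPM (0.576 to 2.21) after anti-CD3L1, in 4.05% and 0.942% of cells. A UMI of a segment does not show that it was rearranged, since these counts do not give the sequence across a junction.

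ILC2-gated cells carried the same genes in another mix. Trbc1 had 176 CPM (124 to 244) and 213 CPM (184 to 245) there, Trbc2 230.4 CPM (169 to 306) and 210.4 CPM (182 to 242), and Trdc 29.4 CPM and 23.0 CPM. Trdc therefore made up 11.3% (4.27 to 23.0%) and 9.86% (6.21 to 14.7%) of the UMIs of Trdc and Trbc2 together in ILC2-gated cells, against 56.6% (52.1 to 61.0%) and 56.8% (54.9 to 58.7%) in NK-gated cells. These intervals did not overlap between the gates in either library and did overlap between the libraries within each gate. Against Trbc1 instead, Trdc made up 14.3% (5.43 to 28.5%) in control ILC2-gated cells and 30.3% (27.4 to 33.4%) in NK-gated ones, with overlapping intervals. After anti-CD3L1 these shares were 9.77% (6.15 to 14.5%) and 33.9% (32.5 to 35.3%), with intervals apart. The 6 control Trdc UMIs of the ILC2 gate lay in 2 of 24 cells, 5 of them in 1 cell. Trbc1 made up 43.4% of Trbc1 and Trbc2 UMIs in control ILC2-gated cells and 74.9% in NK-gated cells, where how reads were split is uncertain. Barcodes of under 100 UMIs had 32.6% (19.1 to 48.5%) and 46.0% for Trdc of Trdc and Trbc2.

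**Figure D2:**
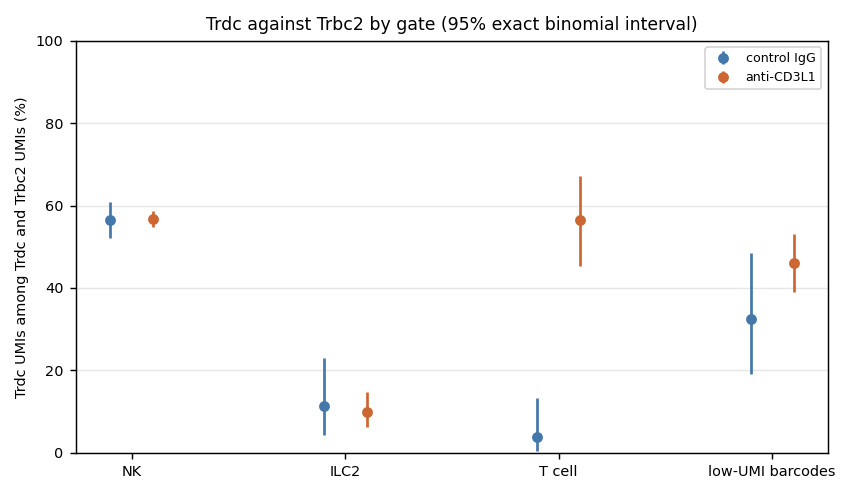
Trdc UMIs as a percent of Trdc and Trbc2 UMIs (y axis) in NK, ILC2 and T cell gates and in barcodes of under 100 UMIs, per library, with exact binomial 95% intervals. NK-gated cells lie at 56.6% and 56.8%, ILC2-gated cells at 11.3% and 9.86%, and the few T-gated cells at 3.85% under control IgG and 56.5% after anti-CD3L1.

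Few cells had the full set of transcripts that a T cell needs. The T cell gate, from 10 markers such as Cd5, Cd6, Bcl11b and Themis, held 7 cells under control IgG and 19 after anti-CD3L1. Cd3e was found in 4 of these 7 cells and 6 of these 19, and Trac in 5 and 6. The 4 control cells with Cd3e held 5, 4, 3 and 2 UMIs of it, and each also held Cd3d, Cd3g, Cd247, Trac and Trbc2. Alpha or beta variable segments were found in 3 of those 4 cells and in no other control T-gated cell. These 3 cells held 1, 3 and 2 UMIs of them, and also 2, 1 and 3 UMIs of gamma or delta variable segments. After anti-CD3L1 only 1 T-gated cell held an alpha or beta variable segment, and it held no Cd3e. Trdc was found in 1 control T-gated cell and in 9 treated ones, 2 of which held Cd3e with 17 and 12 UMIs of Trdc and with gamma or delta variable segments. The T-gated cells were thus a mixture, and 3 control and 13 treated ones held no Cd3e at their depth.

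Over all cells, Cd3e had 22 UMIs in 9 cells (0.105%, 0.0481 to 0.200%) under control IgG and 46 UMIs in 29 cells (0.257%, 0.172 to 0.369%) after anti-CD3L1. Of these cells, 4 and 15 held at least 2 other of the 8 genes, and 3 and 14 held none. Those with none lay in monocyte, macrophage, cDC1 and fibroblast gates with 1 UMI of Cd3e each, except a cDC1-gated cell with 2 and an ungated control cell of 800 UMIs in all with 4. Among treated ILC2-gated cells, Cd3e was found in 4, of which all held Cd3g, one with 7 UMIs of it. Counted another way, 120 control cells and 657 treated cells held at least 3 distinct genes of the 8. Of these, 98 and 514 were NK-gated and 4 and 16 T-gated.

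Cd3d, the delta chain of CD3, was the exception to the NK pattern under control IgG. Under control IgG, 837 of its 924 UMIs (90.6%) were in neutrophil-gated cells, at 24.6 CPM (23.0 to 26.3) and in 647 of 5760 cells (11.2%, 10.4 to 12.1%). After anti-CD3L1 neutrophil-gated cells held 70 of 379 UMIs, at 35.6 CPM (27.7 to 44.9) and in 58 of 580 cells (10.0%). NK-gated cells then held more, 209 of the 379. The level in neutrophils was close to that in NK-gated cells, and it was far above the 0.520 CPM (0.2496 to 0.957) and 1.013 CPM (0.679 to 1.46) of monocyte-gated cells. Barcodes of under 100 UMIs had 11.8 CPM (8.81 to 15.5) and 2.52 CPM (1.44 to 4.09). At 1000 UMIs per cell, 2.08% and 3.24% of neutrophil-gated cells still held a UMI.

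The neighbouring CD3 genes did not follow Cd3d in neutrophil-gated cells. Cd3g had 2 UMIs in the 5760 control cells and 1 in the 580 treated cells, and Cd3e had 1 and 0. The 7 genes other than Cd3d had 130 UMIs in control neutrophil-gated cells, of which 81 fell in 14 cells that also passed the NK list. Those 14 cells held 4 of the 837 Cd3d UMIs. Only 5 of the 647 control cells with Cd3d, and 1 of the 58 treated ones, held another of the 8 genes. In neutrophil-gated cells that passed no other list, Cd3d had 23.1 CPM (21.3 to 25.01) and 47.6 CPM (35.9 to 61.8).

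The Cd3d UMIs were spread thinly over neutrophil-gated cells. Of the 647 control cells with Cd3d, 507 held 1 UMI, 102 held 2 and the highest held 6. In 4 equal groups of cells by depth, the control level was 16.6, 24.2, 28.7 and 24.7 CPM from the shallowest to the deepest cells. The treated level was 46.6, 58.0, 51.1 and 22.0 CPM in the same order, so it was lowest in the deepest cells. Split at the median of Retnlg, a resistin-like gene of mature neutrophils, cells above it had 35.2 CPM (32.6 to 38.02) and the others 11.5 CPM (9.87 to 13.3). After anti-CD3L1 the same split gave 57.0 CPM (42.7 to 74.5) and 16.4 CPM (9.53 to 26.2). Of the 8 markers of the gate split in this way, 4 in each library gave a higher Cd3d level above the median with intervals apart, Retnlg and G0s2 in both, Mmp9 and Cxcr2 under control IgG, and Csf3r and Hdc after anti-CD3L1. The other 4 in each library, Stfa2 and Il1r2 in both, had overlapping intervals. Retnlg was itself used to gate the cells and moves with their depth, whose median was 5154.5 UMIs above the split and 4062 below it.

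**Figure D3:**
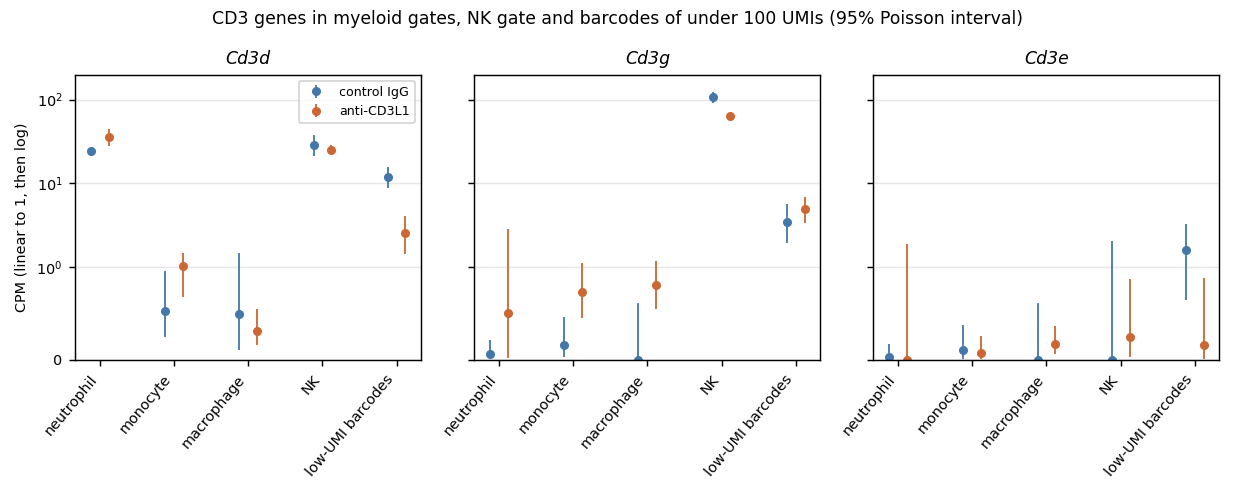
CPM (y axis, linear to 1, then log) of Cd3d, Cd3g and Cd3e in neutrophil, monocyte, macrophage and NK gates and in barcodes of under 100 UMIs, for control IgG and anti-CD3L1, with Poisson 95% intervals. Cd3d stands at 24.6 and 35.6 CPM in neutrophil-gated cells, while Cd3g and Cd3e stay under 1 CPM there.

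Itpripl1, the ligand gene, was found at low levels in several myeloid and dendritic gates and in NK-gated cells. It had 196 UMIs in 174 cells under control IgG and 649 UMIs in 590 cells after anti-CD3L1. Under control IgG the order of levels was cDC1 at 35.5 CPM (16.2 to 67.4, from 9 UMIs in 12 cells), NK at 11.5 CPM (7.11 to 17.6), cDC2 at 10.7 CPM, pDC at 9.34 CPM, macrophage at 7.44 CPM (5.43 to 9.95), monocyte at 3.70 CPM (2.89 to 4.66) and neutrophil at 0.618 CPM (0.382 to 0.944). After anti-CD3L1 it was pDC at 22.9 CPM (16.0 to 31.7), cDC1 at 19.1 CPM (14.2 to 25.2), cDC2 at 11.7 CPM (8.12 to 16.4), NK at 8.77 CPM (6.87 to 11.02), monocyte at 5.63 CPM (4.79 to 6.56), macrophage at 5.41 CPM (4.67 to 6.22) and neutrophil at 2.54 CPM (0.825 to 5.93). Here cDC1 and cDC2 are the conventional types and pDC the plasmacytoid type of dendritic cell. Neighbours in these orders had overlapping intervals, except macrophage over monocyte and monocyte over neutrophil under control IgG and NK over monocyte after anti-CD3L1. The gates left out of these orders held 0 to 3 Itpripl1 UMIs each, among them mature dendritic cells with 1 UMI after anti-CD3L1, at 0.739 CPM (0.0187 to 4.12). Of the 9 control cDC1 UMIs, 8 were in the 7 cells that also passed the cDC2 list, and the 5 cells with no other list had 1 UMI, at 10.6 CPM (0.268 to 59.1).

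How much RNA from outside the cell (free RNA) each gate held was not measured. The level in barcodes of under 100 UMIs is therefore a comparison only, and does not decide which gates had a level of their own. It was 2.72 CPM (1.41 to 4.75) under control IgG and 9.44 CPM (7.20 to 12.1) after anti-CD3L1. After anti-CD3L1, only the pDC and cDC1 intervals lay above it, NK overlapped it, and monocyte and macrophage lay below it. In cells that passed no other list the pDC value was 33.5 CPM (9.12 to 85.7, from 4 UMIs in 17 cells) and the cDC1 value 15.3 CPM (8.92 to 24.5), and both intervals then overlapped it. Of the treated pDC-gated cells 163 passed another list, 144 of them that of cDC2. Under control IgG the NK, macrophage and cDC1 intervals lay above it, and in cells with no other list only NK did, at 11.2 CPM (5.78 to 19.5), since macrophage had 7.50 CPM (4.45 to 11.9). Monocyte-gated and macrophage-gated cells nevertheless held the most Itpripl1 UMIs, at 36.2% and 23.0% under control IgG and 24.8% and 29.9% after anti-CD3L1. They made up 17.6% and 5.11% of control cells and 29.9% and 31.5% of treated cells. Receptor genes in these gates were also low: Trbc1 after anti-CD3L1 had 4.72 CPM in monocyte-gated and 3.79 CPM in macrophage-gated cells, under the 43.9 CPM of the low-UMI barcodes. In NK-gated cells, 16 and 68 cells held Itpripl1, of which 7 and 22 also held Cd3g.

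**Figure D4:**
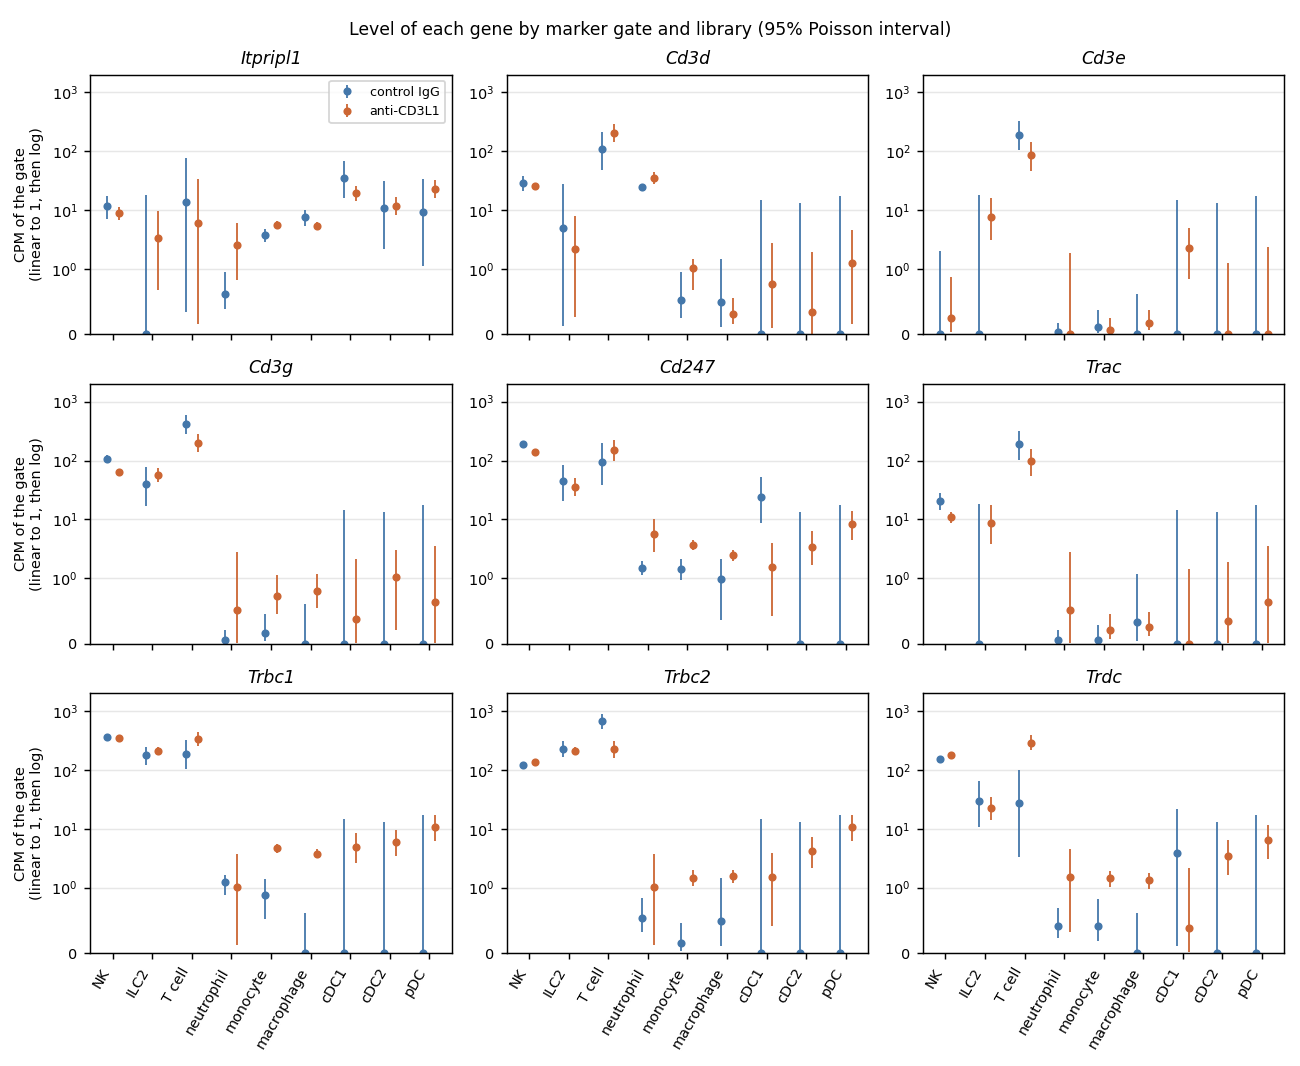
CPM (y axis, linear to 1, then log) of the 9 genes in 9 marker gates, for control IgG and anti-CD3L1, with Poisson 95% intervals. Trbc1, Trbc2, Trdc, Cd3g and Cd247 are high in NK, ILC2 and T cell gates, and Cd3d also in the neutrophil gate. Itpripl1 runs from 0 CPM in control ILC2 and 0.618 CPM in control neutrophils to 35.5 CPM in control cDC1.

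Between the libraries, summed over all cells, 6 of the 9 genes were at least 2-fold higher after anti-CD3L1 and 1 was at least 2-fold lower. Of 17781 genes with at least 20 UMIs, 33.6% were at least 2-fold higher and 6.65% at least 2-fold lower, 40.3% in all, and the median log2 ratio was 0.72. The log2 ratio was 1.95 (1.77 to 2.12) for Trdc, 1.67 (1.56 to 1.78) for Trbc1, 1.66 (1.49 to 1.83) for Trbc2, 1.21 (1.06 to 1.36) for Cd247, 1.19 (0.95 to 1.42) for Itpripl1 and 1.07 (0.86 to 1.28) for Cd3g. It was −1.83 (−2.00 to −1.65) for Cd3d. Trac, with 60 and 151 UMIs, had 0.79 (0.35 to 1.25), and Cd3e 0.52 (−0.24 to 1.33). Scaled without the 50 most abundant genes, Cd3g at 0.88 and Itpripl1 at 0.999 were no longer past 2-fold. The NK gate rose from 1.73% to 7.53% of cells and the neutrophil gate fell from 67.3% to 5.15% alongside these ratios. In such sums, more cells of a type and more RNA per cell cannot be told apart.

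Within the NK gate none of the 8 genes with at least 20 UMIs changed 2-fold (Cd3e had 0 and 2 UMIs), where 11.3% of 11249 genes did (8.85% higher and 2.47% lower) and the median log2 ratio was 0.16. Trdc had a log2 ratio of 0.19 (0.00 to 0.38), Trbc2 0.18 (−0.04 to 0.39) and Trbc1 −0.04 (−0.17 to 0.08). Cd3g had −0.74 (−0.98 to −0.49), Cd247 −0.43 (−0.60 to −0.25) and Trac −0.94 (−1.51 to −0.36), with intervals below 0. Cd3d had −0.18 (−0.62 to 0.29) and Itpripl1 −0.39 (−1.11 to 0.39). Without the cells that passed several lists, Trac was more than 2-fold lower at −1.14, from 30 and 69 UMIs. In the same cells Cd3g had −0.24 and Cd3d 0.97, from 17 control UMIs, so the size of the Cd3g difference and the direction of the Cd3d difference rest on the cells left out. The same NK-gated cells without another list had 83.0 CPM (66.7 to 102) and 70.5 CPM (63.6 to 77.9) of Cd3g. Within the ILC2 gate the 8 CD3 and receptor genes together had a log2 ratio of 0.09 (−0.21 to 0.40). In the monocyte gate they had 1.83 (1.46 to 2.21), from 3.75 and 13.3 CPM. In the macrophage gate they had 2.21 (1.45 to 3.09), from 2.31 and 10.7 CPM, and in the cDC1 gate −1.22 (−2.43 to 0.21), from 7 and 31 UMIs. The part of free RNA in these low levels was not tested. Within the neutrophil gate Cd3d had a log2 ratio of 0.53 (0.16 to 0.88), where the median of all genes was 0.69. In neutrophil-gated cells with no other list the Cd3d ratio was 1.04 (0.62 to 1.44), past 2-fold, a reading chosen after the data were seen.

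**Figure D5:**
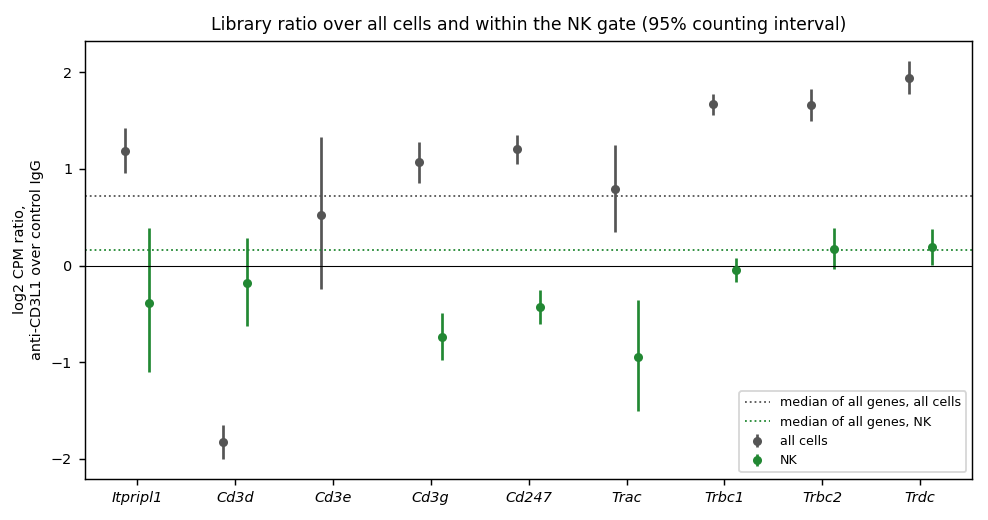
Log2 ratio of CPM, anti-CD3L1 over control IgG (y axis), of the 9 genes over all cells and within the NK gate, with counting 95% intervals and the median of all genes as dotted lines. Over all cells Trdc is highest at 1.95 and Cd3d lowest at −1.83, while within the NK gate the values run from −0.94 to 0.19; Cd3e is not drawn for the NK gate.

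The genes around the receptor were read from fixed lists, to be set beside the 33.6% of all genes that were 2-fold higher over all cells and the 6.65% that were lower. Of 20 genes of proximal T cell receptor signalling, 13 were at least 2-fold higher over all cells and 1, Lcp2, an adaptor that myeloid cells also use, was 2-fold lower. Within the NK gate 16 of them had enough UMIs and 0 changed 2-fold, where 11.3% of all genes did. The kinases Txk (562 and 517 CPM) and Lck (218 and 206 CPM), with the adaptor Skap1 (538 and 456 CPM), were present there in both libraries. Of 9 adaptors and receptors that pair with Cd247 or its relatives, 5 were 2-fold higher over all cells. In the NK gate 0 were, where 8.85% of all genes were. Summed over all cells, the 9 genes had 4746 CPM under control IgG and 4046 CPM after anti-CD3L1. In NK-gated cells Tyrobp, an adaptor of activating receptors, had 1182 and 1159 CPM. Fcer1g, another adaptor, had 436 and 554 CPM there, and Ncr1, an NK receptor that signals through zeta, had 225 and 261 CPM. Ncr1 was itself a marker used to gate these cells, so its presence there follows from the gating. Of 260 variable, joining and gamma-chain segments, 55 had a UMI over all cells and 8 at least 20. Of these, 6 were 2-fold higher over all cells. Of 4 with enough UMIs in the NK gate 1, Trdv4, was 2-fold lower, at a log2 ratio of −1.11 (−1.59 to −0.61), where 2.47% of all genes were lower. Of 6 rearrangement and thymic genes, 3 had enough UMIs over all cells, 2 of them were 2-fold higher, and 0 had enough in the NK gate.

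Across all gates, the genes most like each member were lymphoid genes for the receptor genes and not for Itpripl1. Over 28 gates, counting each library's gates, and 12508 genes, Trbc2 and Trbc1 were most like Zap70, a kinase that binds phosphorylated CD3 chains, with Pearson r of 0.99 and 0.97. Trdc was most like Tigit (0.95), an inhibitory receptor of NK and T cells, and Cd247 also (0.81). Cd3g was most like Cd96 (0.96) and Trac most like Fasl (0.93), the gene of a death ligand. Cd3d was most like 4732465J04Rik (0.86) and Itpripl1 most like Gart (0.87), an enzyme of purine synthesis. Some of these changed over the 22 gates of at least 10 cells. There Cd3g was most like Gimap1os (0.98), Trac most like Qrfp (0.95), Trbc1 most like Trbc2 (0.97) and Itpripl1 most like Mrps35 (0.85). The closest gene of the other members read stayed the same. The points share libraries and differ in depth, several gates held few cells, and these values are a description.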

How the data were processed

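RNA of CD45 bead-sorted tumor cells was measured with 10x Genomics droplets in 2 libraries, 1 per group. The deposited UMI counts per gene and barcode were made with Cell Ranger 7.1.0 (file headers), which the study states was run by GENEWIZ. They hold 1084690 and 1548857 barcodes with no cell call. The submitters' processing notes also name Seurat 5.1.0 and GRCm39, without saying what the build was used for. The sources used here do not say whether intronic reads were counted or strand was used. The authors' deposited table of macrophage genes holds only their own comparison (fold changes, p-values and shares of cells) and was not used.

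Barcodes with at least 500 UMIs, more than 200 and fewer than 6000 genes and under 5% mitochondrial UMIs were kept, with 67296569 and 97909163 UMIs in all. Gates took a cell with at least 3 distinct markers of a list to the list with the largest share found. This minimum was set after the data were seen. Ties and cells below the minimum, 598 and 1925, stayed ungated. Doublets were kept and no doublet caller was run. UMIs were summed per gate and library. With 1 library per group there was no test across samples, and no p-value was computed. All intervals are 95% intervals. Those of CPM are exact Poisson, those of shares Clopper-Pearson, and those of ratios exact binomial given the summed UMIs. A count of 0 has the limit that 3 counts set. A fold of 2 was read among genes with at least 20 UMIs in both libraries together, and in the counts over all genes and lists a gene at 0 in 1 library was taken as past it. Shares were also read after thinning cells to 1000 UMIs. The genes named are the 9 members, for each member of at least 200 UMIs the genes with the most similar log2(CPM + 1) over gates, and up to 6 genes of each fixed list. Nrp1 and genes that overlap a member were named outside this rule, after their values were seen, and 1 gene of the fixed lists is not reported here by name. Members and lists were chosen with earlier results of these data known. Alternatives changed the gate rule, the filters, depth, scaling and free RNA. The ratio, its interval and the gate rule were tested on simulated data. Coordinates are GENCODE M21 of GRCm38, where 9 of 9 identifiers matched, and promoters RefSeq GRCm38.p6, with entries for 5 members. Python 3.11.15, numpy 2.4.6, scipy 1.17.1, pandas 2.3.3 and matplotlib 3.10.9 were used.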

Additional observations from a re-analysis of the deposited data

How the results depend on the processing

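With 1 library per group no library could be left out. No paired analysis was possible because the groups share only 1 replicate number and no result comes from a test. Among the summary values only the log2 ratio of the 8 genes over all cells was read for a change of direction, and it kept its direction. Levels, shares and counts have no direction. The single Cd3d ratio within the NK gate, given above, did change direction. Leaving out cells that pass several gates moved 8 of 17 summary values, and thinning 134 of 180 single shares of cells. Without such cells the NK share of the UMIs of the 8 CD3 and receptor genes went from 55.2% to 52.4% under control IgG and from 73.6% to 79.0% after anti-CD3L1, and with 2 or 4 markers the latter was 74.5% or 67.4%. The same cells left out gave 940.5 CPM of the 8 genes in treated NK-gated cells (897 with them), 10.6 CPM of Itpripl1 in control cDC1 (35.5), 47.6 CPM of Cd3d in treated neutrophils (35.6), a log2 ratio of the 8 genes in the NK gate of −0.039 (−0.12), and 70 and 430 cells with at least 3 of the 8 genes (120 and 657). At least 4 genes gave 77 and 332 cells, and at least 2 gave 1022 in the treated library. The share of NK-gated cells with any of the 8 genes, 99.3% and 97.4%, was 52.7% and 57.1% in cells thinned to 1000 UMIs, and 98.4% in treated cells with 4 markers. Scaled without the 50 most abundant genes, the log2 ratio of the 8 genes over all cells was 0.93 (1.11). At least 1000 UMIs per cell and a mitochondrial limit of 10% moved 0 of 18 summary values each beyond their interval. Subtraction of free RNA was tried on ratios between the libraries only, among them 2 summary values, and moved 0 of these. Its amount was set from the UMIs of the 7 genes other than Cd3d in neutrophil-gated cells. It therefore does not show how much free RNA a gate held. Shares of cells depend on depth, and counts of under 10 UMIs limit Cd3e, T-gated cells and control dendritic cells. Variation between tumors cannot be estimated.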

Other observations

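Some UMIs of gamma chain genes, Il17a and Il23r lay in ILC2-gated cells. The 4 gamma constant genes had 4 UMIs there under control IgG and 37 after anti-CD3L1, in 20.7% of the treated cells, while the much larger treated NK gate had 10. Their level was 19.6 and 40.5 CPM in ILC2-gated cells. In the few T-gated cells it was higher, at 54.4 and 66.7 CPM, and 21.1% of the treated ones held a UMI. Il17a, the gene of a cytokine that gamma-delta T cells and type 3 innate lymphoid cells make, had 0 UMIs in the control library and 21 in the treated library, 14 of them in ILC2-gated cells. Il23r, the receptor gene of the cytokine that drives Il17a, had 30 and 65 UMIs in ILC2-gated cells (147 and 71.2 CPM). In NK-gated cells it had 32 and 2 UMIs, a log2 ratio of −6.19 (−9.29 to −4.22), where 2.47% of all genes were at least 2-fold lower. Of these cells, 13 of 148 control and 31 of 849 treated ones also passed the ILC2 list. Their part in this ratio was not tested. Il17a and Il23r belong to a fixed list of 6 gamma-delta T cell genes. Of the list, 5 had enough UMIs over all cells, 2 were at least 2-fold higher and 1 lower, where 33.6% and 6.65% of all genes were. Of 3 genes of that list with at least 20 UMIs over the gates of the treated library, 2 had their highest level in the T cell gate and 0 in the ILC2 gate. The ILC2 list includes Rora and Il7r, which other innate lymphoid cells and T cells also express, so the gate may hold more than 1 cell type.

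A fixed list held 7 genes taken as relatives or possible partners of Itpripl1, and being listed does not show that a gene is one. Of the 7, 4 were at least 2-fold higher over all cells after anti-CD3L1. The gene Itprip was more than 2-fold lower, at a log2 ratio of −1.39 (−1.49 to −1.29), and the only 1 that was. Of all genes 33.6% were higher and 6.65% lower. Nrp2, which the study names as the partner of CD3L1 on macrophages, had 165 and 263 CPM over all cells and 328 and 338 CPM in macrophage-gated cells. Its level in cDC1-gated cells was 308 and 51.2 CPM, a log2 ratio of −2.59 (−3.00 to −2.17) from 78 UMIs in 12 control cells. Within the NK gate 2 of the 7 were counted as 2-fold higher, where 8.85% of all genes were, and 0 as lower. Itpripl2 had 2 and 52 UMIs there. Nrp1 had 0 and 27 UMIs, so it was counted by the rule for a gene at 0 in 1 library. These were too few to bound its ratio above 2-fold. In neutrophil-gated cells Itprip had 50.4 and 41.1 CPM, where Itpripl1 had 0.618 and 2.54 CPM.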
